A study of Rattus norvegicus with 6 samples.

Results

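Small leucine-rich proteoglycans are short secreted proteins built of leucine-rich repeats, and most carry chains of chondroitin, dermatan or keratan sulfate. They sit on the surface of collagen fibrils, where they set how fibrils grow and pack, and several also hold growth factors in the matrix. In tendon they are the main proteoglycans between the collagen fibres, and mice that lack single members form tendons with irregular fibrils. Here 10 genes of this family were followed, Dcn, Bgn, Aspn, Lum, Fmod, Kera, Prelp, Omd, Ogn and Chad, chosen by name out of 22093 genes measured. The choice was made with earlier results of these data known. Each gene was read from 1 probe set, the one with the highest mean over all arrays among those that name that gene alone, and all 10 genes had one.

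The study put RNA from tendons of Sprague-Dawley rats on 6 arrays, 3 from rats with injured tendons and 3 from rats given control surgery, all taken 1 week after the operation. Rats were assigned to the operations at random, and the labels call the replicates biological, without saying that each is 1 rat. The ages and sexes of the rats, the tendon injured and the way it was injured were not stated in what was used here. Values are log2 signals as deposited, so a difference of 1 means a 2-fold ratio, and differences are injured minus control.

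The arrays did not behave alike. Across genes, Pearson's r was 0.965 between injured replicates 2 and 3, and 0.687 to 0.833 between either of these and a control array. For injured replicate 1 it was 0.951 to 0.966 with a control array, but 0.728 and 0.790 with injured replicates 2 and 3. Between control arrays r was 0.960 to 0.986. The median probe set without a gene name, used here as a mark of dim signal, read 5.59, 6.61 and 6.50 on injured replicates 1, 2 and 3 and 5.49, 5.58 and 5.79 on control replicates 1, 2 and 3. Every array ended at a ceiling of 19.86 to 19.93, and a value within 0.02 of an array's maximum was taken as at that ceiling. Of the tendon markers, Tnmd (tenomodulin), Thbs4 (thrombospondin 4) and Comp (cartilage oligomeric matrix protein) read between 11.07 and 17.79 on the control arrays. Scx and Mkx, transcription factors that define tenocytes, read 5.44 to 5.99 on the injured arrays and 5.67 to 6.74 on the control arrays. These values are near the median unnamed probe set, so these regulators were dim in all 6 samples. Scx overlapped between the groups. Mkx read lower on every injured array (5.66, 5.99 and 5.92) than on any control array (6.23, 6.30 and 6.74), as did 8% of all genes.

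Injured tendons had lower mean signals of all 10 proteoglycan genes. The median difference over the 10 genes was -5.42, against 0.15 over all genes tested, and 7 of 10 genes read lower on every injured array than on any control array, against 8% of all genes. None of the 10 passed limma's moderated test at an adjusted p of 0.05, the lowest being 0.317 for Kera, nor did any other gene (0% of 22093). At an unadjusted p under 0.05, 8 of 10 genes were lower, against 7.25% of all genes. By their means all 10 were at least 2-fold lower, against 10.9%, though the difference of Dcn is limited by the ceiling. The 10 genes were chosen with earlier results of these data known, so the shares of all genes are given as a description. The count of calls depended on injured replicate 1. Without it, 9 of 10 genes passed, as did 60.7% of all genes, and Lum was the exception. In bulk tissue, fewer tendon cells and less proteoglycan RNA per cell cannot be told apart.

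**Figure D1:**
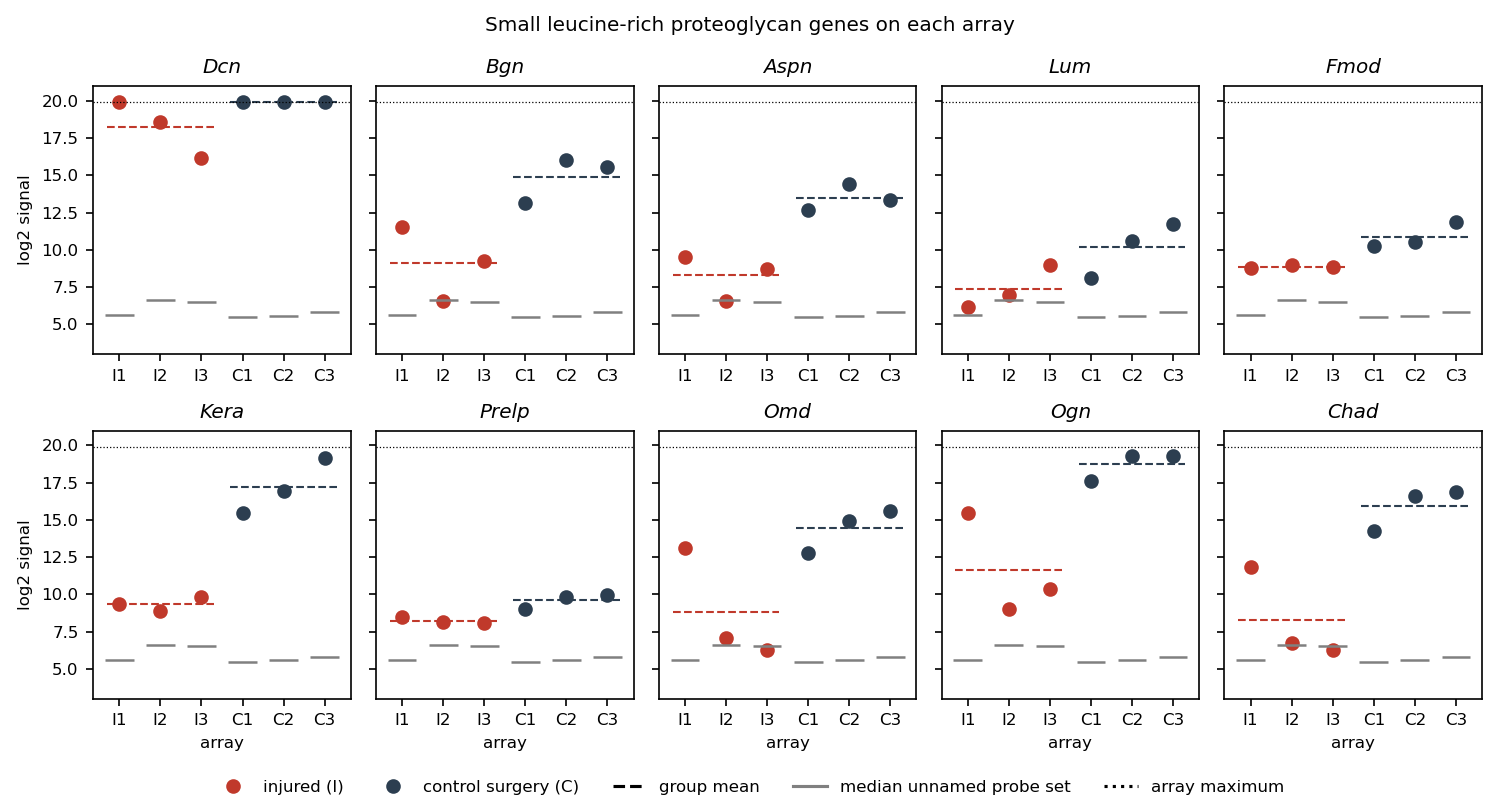
Log2 signal of the 10 proteoglycan genes on each array, injured (I1 to I3) left of control surgery (C1 to C3), with dashed group means, a grey bar at the median unnamed probe set of each array and a dotted line at the array maximum. Kera reads 8.90 to 9.79 on the injured arrays and 15.46 to 19.17 on the control arrays, while Omd on injured replicate 1 (13.11) lies inside the control range.

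Kera encodes keratocan, a keratan sulfate proteoglycan best known for keeping collagen fibrils of the cornea thin and evenly spaced, and also made by tenocytes. It read 9.37, 8.90 and 9.79 on the injured arrays and 15.46, 16.92 and 19.17 on the control arrays. The groups were separated by 5.67 between the highest injured and the lowest control value, the widest such gap of the 10 genes, and the injured arrays lay closer together than the control arrays. The mean difference was -7.83 (SE 0.94, limma adjusted p = 0.317), a 228-fold ratio of control over injured. Only 3 of the 22093 genes had a difference as low or lower, Kera among them. On all 3 injured arrays it stayed above the median unnamed probe set, by 3.78, 2.29 and 3.29. Within each array Kera ranked at the 87.5 to 95.7 percentile of genes after injury and at the 99.3 to 99.9 percentile after control surgery.

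Fmod and Prelp, like Kera, were about equally low on every injured array, a grouping made after the values were seen. Fmod encodes fibromodulin, which binds type I collagen and helps fibrils to mature. It read 8.78, 8.98 and 8.84 on the injured arrays and 10.25, 10.54 and 11.88 on the control arrays, with no overlap, and its mean difference was -2.02 (SE 0.44, adjusted p = 0.322). The spread among injured arrays (SD 0.10, n = 3) was far below that among control arrays (SD 0.87, n = 3). Prelp encodes prolargin, which ties collagen to heparan sulfate of basement membranes. Its signal was 8.46, 8.15 and 8.10 on the injured arrays against 9.05, 9.84 and 9.93 on the control arrays, a difference of -1.37 (SE 0.28). This was the smallest difference of the 10 genes, and the groups were 0.59 apart.

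Lum, the gene of lumican, a keratan sulfate proteoglycan that limits fibril thickness in cornea and skin, overlapped between the groups. It read 6.13, 6.97 and 9.0 on injured replicates 1, 2 and 3 and 8.09, 10.62 and 11.76 on control replicates 1, 2 and 3. Injured replicate 3 exceeded control replicate 1, and the difference of -2.79 (SE 1.16, adjusted p = 0.322) was not separated from the spread between arrays. On injured replicates 1 and 2 it lay 0.54 and 0.36 above the median unnamed probe set, so background limits how low it could read there.

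Bgn and Aspn formed a pair with intermediate values on injured replicates 1 and 3 and the lowest on injured replicate 2. Bgn encodes biglycan, a dermatan sulfate proteoglycan that shapes collagen fibrils and, once released from matrix, is sensed by Toll-like receptors. It read 11.51, 6.54 and 9.23 on the injured arrays and 13.16, 16.02 and 15.56 on the control arrays, with a difference of -5.82 (SE 1.42, adjusted p = 0.322). Aspn encodes asporin, which carries a run of aspartate residues and competes with decorin for collagen. Its values were 9.54, 6.58 and 8.73 after injury and 12.65, 14.41 and 13.37 after control surgery, a difference of -5.19 (SE 0.87). Neither gene overlapped between groups. On injured replicate 2 both lay just under the median unnamed probe set (by -0.07 for Bgn and -0.03 for Aspn), so background limits how low they could read there. A second probe set for Aspn gave a difference of -5.15.

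Ogn, Chad and Omd were lowest on injured replicates 2 and 3 and held part or all of their signal on injured replicate 1. Ogn encodes osteoglycin, also called mimecan, a small proteoglycan that regulates fibril formation. It read 15.44, 9.03 and 10.35 on the injured arrays and 17.63, 19.31 and 19.30 on the control arrays, a difference of -7.14 (SE 1.71), and the groups did not overlap. The second Ogn probe set differed by -6.22. Chad encodes chondroadherin, which carries no sulfate chains, binds collagen and attaches cells through an integrin. Its signal was 11.83, 6.76 and 6.25 after injury and 14.23, 16.62 and 16.90 after control surgery, a difference of -7.64 (SE 1.66), again without overlap. Omd encodes osteomodulin, a keratan sulfate proteoglycan first known from bone. It read 13.11, 7.04 and 6.28 on the injured arrays and 12.78, 14.96 and 15.62 on the control arrays. Injured replicate 1 thus lay above control replicate 1 and at -1.34 from the control mean, and the mean difference of -5.64 had an SE of 1.96. Its other probe set gave -5.65. Chad and Omd were near the median unnamed probe set on injured replicates 2 (0.15 and 0.43 above it) and 3 (-0.25 and -0.22 from it), where background bounds them.

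Dcn encodes decorin, the most abundant proteoglycan of tendon, which wraps collagen fibrils and binds TGF-beta. It read 19.93, 18.57 and 16.17 on the injured arrays and 19.93 on each control array. All 3 control arrays and injured replicate 1 were at the ceiling, so the difference of -1.71 (SE 0.93) is limited by it and no fold is given. Injured replicates 2 and 3 lay below the ceiling, at -1.36 and -3.76 from the control mean. Decorin thus remained among the brightest genes on every array, above the 99.7 percentile of genes.

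**Figure D2:**
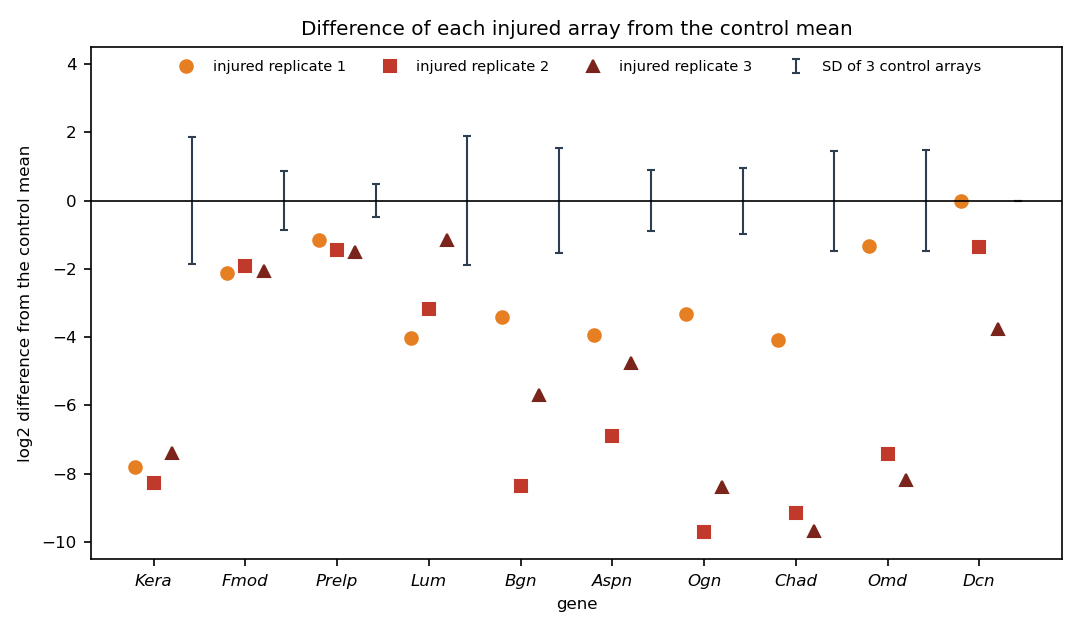
Log2 difference of each injured array from the mean of the 3 control arrays for the 10 genes; bars show the SD of the control arrays around 0. Kera (-7.81, -8.28 and -7.39), Fmod and Prelp are level across the injured arrays, and Ogn, Chad and Omd are lowest on injured replicates 2 and 3.

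Control tendons also differed among themselves in these genes. Control replicate 1 had the lowest of the 3 control values for 9 of the 9 genes not tied at the ceiling, against 49.3% of all genes. Without control replicate 1 the median difference of the 10 genes was -6.04, and 9 of 10 did not overlap, against 11.8% of all genes. Rescaling moved the median difference of all genes, which was 0.15 as deposited, -0.28 after quantile normalization and -0.38 with each array centred on its median. Relative to that median the 10 genes stood at -5.57 as deposited and -5.81 after quantile normalization, and centring cannot move this value. With each array's median unnamed probe set as a covariate, 5 of the 10 genes came closer to 0 by more than 1.5 times. They stood at -2.27 for Omd, -3.91 for Ogn, -4.87 for Chad, -3.83 for Bgn and -0.33 for Dcn, while Lum stood at -4.25. Only injured replicates 2 and 3 had raised values of this covariate (6.61 and 6.50), against 5.59 for injured replicate 1. The covariate thus mainly marks those arrays, and the adjusted differences lean on injured replicate 1. That array alone lay at -1.34, -3.31, -4.09, -3.40, 0 and -4.03 from the control mean for Omd, Ogn, Chad, Bgn, Dcn and Lum. Background and injury cannot be separated by this fit.

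Most of these genes lie beside one another in the rat genome, and neighbours were compared by their values on each array. On chromosome 7, Dcn, Lum, Kera and Epyc follow each other with no protein-coding gene between them in RefSeq's annotation of assembly GRCr8. Epyc, chosen as their neighbour and encoding epiphycan, a proteoglycan of cartilage, read 5.61, 7.21 and 6.85 after injury and 5.30, 5.57 and 6.07 after control surgery, close to the median unnamed probe set of each array. Kera, its neighbour, differed by -7.83, and Epyc by 0.91 (SE 0.47). On chromosome 17, Ogn, Omd, Aspn and Ecm2 lie in a row with 1 other protein-coding gene in it. Ecm2, a matrix gene with leucine-rich repeats, read 12.27, 6.51 and 5.89 on the injured arrays and 13.10, 15.38 and 15.45 on the control arrays, a difference of -6.42 (SE 1.83) with no overlap. On injured replicates 2 and 3 it lay under the median unnamed probe set (6.61 and 6.50), where background bounds it. On chromosome 13, Optc (opticin), Prelp and Fmod are adjacent. Optc read 6.91, 6.87 and 6.79 on the injured arrays against 7.23, 7.49 and 7.50 on the control arrays, a difference of -0.55 (SE 0.15). It too lay close to the median unnamed probe set on injured replicates 2 and 3, where background bounds it.

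The promoters of the 3 genes with the largest differences, Kera, Chad and Ogn, and of Omd, which kept its signal on injured replicate 1, are shown so that genes that were low together can be set side by side. RefSeq start sites on GRCr8 gave a window of 250 bases before to 50 bases after the start for 7 of the 10 genes. Capitals mark E-boxes (CANNTG, the same on both strands, the site class bound by basic helix-loop-helix factors such as scleraxis) and TATA boxes (TATAAA on either strand). Kera is on the plus strand at chr7:34283850-34284149, Chad on the plus strand at chr10:80008795-80009094, Ogn on the minus strand at chr17:15258946-15259245 and Omd on the minus strand at chr17:15274821-15275120, and each is written 5′ to 3′ along its gene.
Kera: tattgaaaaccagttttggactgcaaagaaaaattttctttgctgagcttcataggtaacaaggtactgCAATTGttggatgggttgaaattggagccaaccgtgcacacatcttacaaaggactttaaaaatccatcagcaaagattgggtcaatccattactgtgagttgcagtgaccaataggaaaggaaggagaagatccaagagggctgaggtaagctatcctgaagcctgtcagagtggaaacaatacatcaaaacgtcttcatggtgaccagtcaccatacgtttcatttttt
Chad: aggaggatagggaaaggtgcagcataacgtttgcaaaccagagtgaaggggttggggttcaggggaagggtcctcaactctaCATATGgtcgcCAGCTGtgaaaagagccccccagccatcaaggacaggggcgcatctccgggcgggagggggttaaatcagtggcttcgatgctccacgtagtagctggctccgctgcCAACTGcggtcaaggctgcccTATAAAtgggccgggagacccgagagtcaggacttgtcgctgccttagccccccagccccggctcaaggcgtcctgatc
Ogn: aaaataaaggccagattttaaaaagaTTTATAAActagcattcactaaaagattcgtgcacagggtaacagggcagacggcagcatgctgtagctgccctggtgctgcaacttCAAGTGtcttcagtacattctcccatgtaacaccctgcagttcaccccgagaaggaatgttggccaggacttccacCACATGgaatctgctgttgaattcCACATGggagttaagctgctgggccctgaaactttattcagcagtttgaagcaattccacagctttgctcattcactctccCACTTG
Omd: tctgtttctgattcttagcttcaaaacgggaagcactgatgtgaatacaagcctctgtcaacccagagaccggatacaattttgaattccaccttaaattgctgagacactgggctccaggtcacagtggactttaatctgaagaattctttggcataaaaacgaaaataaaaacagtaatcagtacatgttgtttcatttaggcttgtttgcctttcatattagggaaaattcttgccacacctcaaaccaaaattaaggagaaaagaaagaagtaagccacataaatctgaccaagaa

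Windows with an E-box were about as common among these genes as among all promoters, 5 of 7 against 72.1% of 33469 promoters of the same length. For Ogn the start site used lies 172 bases inside the annotated gene, so its 4 E-boxes are within that gene, and the same holds for the single E-boxes of Aspn and Lum, whose start sites lie 98 and 383 bases inside. For Kera, Chad, Omd and Fmod the start site is the first base of the annotated gene. Ogn had 4 E-boxes, and 5.8% of promoters held at least as many, while Chad had 3, which 16.6% of promoters reach or pass. Chad had a TATA box starting 29 bases before its start site, and the motif was present in 14.2% of all promoters. In Ogn the capitals TTTATAAA hold 1 TATA box on each strand, overlapping, 222 and 224 bases before the start site used. Omd, whose signal was kept on injured replicate 1, and Fmod, which was level across the injured arrays, had neither motif in this window. The narrower E-box CAGATG was in 0 of 7 windows and in 16.6% of all promoters, on either strand.

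Collagens bound by these proteoglycans were lower too, by less at the median and more evenly over the injured arrays, but from dimmer control levels. On control replicate 3, for example, their median level was 9.83, against 15.59 for the proteoglycans. On injured replicates 2 and 3 the median unnamed probe set read 6.61 and 6.50. Col2a1 (6.38 and 6.43), Col5a1 (6.62 and 6.72) and Col6a2 (6.64 and 6.75) lay near it there. Of the 12 collagens, 1 lay under it on each of these arrays. Background thus limits how low some collagens could read and how far the lists can be compared. Of 12 collagen genes, 0 passed the test, 11 read lower on every injured array than on any control array against the 8% of all genes, and the median difference was -1.86. By array (injured replicates 1, 2 and 3), the proteoglycans had medians of -3.35, -7.16 and -5.21 and the collagens of -1.96, -1.91 and -1.57. Col1a2, a chain of type I collagen, read 9.62, 8.14 and 10.21 after injury and 14.16, 17.31 and 17.35 after control surgery, a difference of -6.95 (SE 1.03). Col1a1, its partner chain, differed by -5.90 (SE 1.11), and its injured arrays stood at -6.43, -6.52 and -4.76 from the control mean. Both type I chains were lower on injured replicate 1 than on injured replicate 3, as Kera was.

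Genes that build the sulfate chains had medians near 0, with both dermatan epimerases among those that were lower. Many were dim. On injured replicates 2 and 3, 10 and 9 of the 18 chondroitin and dermatan genes lay under the median unnamed probe set. For keratan sulfate and sulfate supply it was 6 of 12 on each of these arrays. Background thus limits how low these lists could read, and medians near 0 do not show unchanged expression. Of 18 measured genes for the linker, chondroitin and dermatan sulfate, 0 passed the test, 5 were lower without overlap against 8% of all genes, 0 were higher without overlap against 7.09%, and the median difference was -0.06. Dsel, a dermatan sulfate epimerase, which turns chondroitin into dermatan on chains such as those of decorin and biglycan, read 8.79, 8.13 and 8.22 on the injured arrays and 9.50, 10.14 and 10.30 on the control arrays, a difference of -1.60 (SE 0.30). Dse, the other epimerase, picked with its values in view, was lower by -1.19 (SE 0.21), also without overlap. Csgalnact2, which starts chondroitin chains, differed by -1.14 (SE 0.46). For keratan sulfate and sulfate supply, 0 of 12 genes passed, 1 was lower without overlap (8% of all genes), and the median was 0.02. Bpnt2, a Golgi phosphatase needed for sulfation, was at 0.07, -3.16 and -3.09 against the control mean on injured replicates 1, 2 and 3, and Papss2, a sulfate donor synthase, was at 0.16, -0.97 and -0.92.

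**Figure D3:**
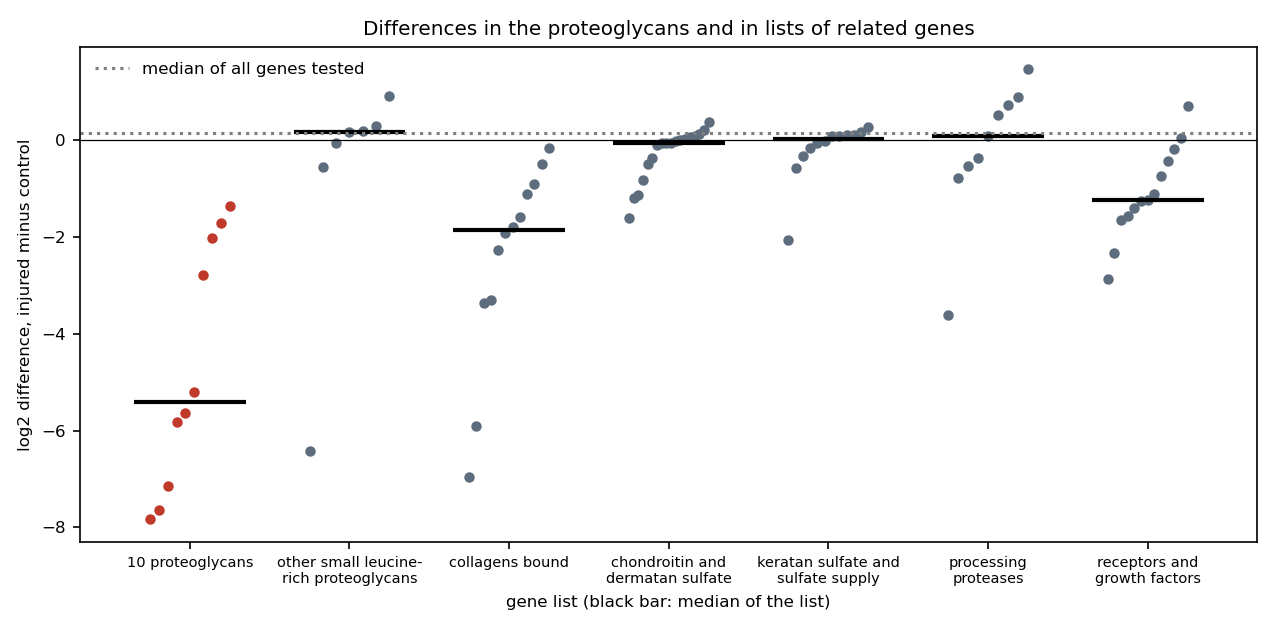
Log2 difference (injured minus control) of each gene in the proteoglycan list and in 6 lists of related genes, with a black bar at each list's median and a dotted line at the median of all genes tested (0.15). The proteoglycans (median -5.42) and collagens (-1.86) lie below 0 throughout. The sulfate chain lists centre near 0, with many of their genes near background.

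Proteases that process or cleave these proteins gave mixed values. Of 9 genes, 0 passed, 2 were lower and 1 was higher without overlap (8% and 7.09% of all genes), and the median was 0.08. Mmp2, a gelatinase, read 10.60, 8.39 and 9.51 on the injured arrays against 11.98, 13.77 and 13.61 on the control arrays, a difference of -3.62 (SE 0.73). Mmp3 (stromelysin) was high on 1 array alone, with 8.40, 12.00 and 8.11 after injury and 8.37, 9.19 and 9.40 after control surgery. A further pair of genes was chosen after their values were seen. Bmp1, which trims the propeptides of biglycan and osteoglycin, differed by -0.79 (SE 0.22), and Adamts4, an aggrecanase, by 0.72 (SE 0.20), both without overlap. Adamts4 read 5.92, 6.32 and 6.52 on the injured arrays and 5.44, 5.59 and 5.57 on the control arrays, close to the median unnamed probe set. That median was itself higher on injured replicates 2 and 3 (6.61 and 6.50), so background limits the reading of this difference. Of 13 receptors and growth factors that bind these proteoglycans, 0 passed, 6 were lower without overlap, against 8% of all genes, and the median was -1.24. Lrp1, an endocytic receptor for decorin, was at -1.28, -4.27 and -3.08 against the control mean, and Itgb1, an integrin subunit of the receptor for chondroadherin, at -0.46, -2.76 and -1.51.

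Other members and relatives of the family had small differences, apart from Ecm2, but several were too dim to show a fall. On each array 3 or 4 of the 7 measured lay under the median unnamed probe set. Of 7 measured relatives, 0 passed, 2 (Ecm2 and Optc) were lower without overlap, against 8% of all genes, and the median was 0.16. Podnl1, Nyx, Tsku and Chadl differed by 0.16, 0.29, -0.05 and 0.19. Of these, Podnl1, Nyx and Chadl read under the median unnamed probe set on all 6 arrays, so their differences do not show unchanged expression. Tsku (6.68 and 6.66) and Optc (6.87 and 6.79) lay close to that median on injured replicates 2 and 3 (6.61 and 6.50), where background bounds them. The 5 genes whose profile over the 6 arrays was most like the mean of 9 proteoglycans (all but Dcn, which is at the ceiling) were Sntb2 at r = 0.997, Comp at 0.997, and Dsel, Tspan6 and Abi3bp at 0.996 each. These are Pearson correlations over 6 arrays that fall into separate sets, given as a description. Abi3bp, a matrix protein gene, read 12.35, 9.16 and 9.33 on the injured arrays and 14.94, 16.82 and 17.13 on the control arrays.

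Markers of other tissues also differed between the injured arrays. Of 8 skeletal muscle markers, 7 were measured, and the log2 of their summed signal was 22.21, 16.55 and 20.16 on the injured arrays, against 21.90 to 22.25 for control arrays. The muscle list's median was 0.25, -6.61 and -6.85 against the control mean on those injured arrays, so it was low on the arrays where Ogn, Chad and Omd were lowest. For 5 endothelial markers the medians were 0.60, -3.44 and -2.92, for 5 adipocyte markers -1.36, -3.34 and -3.30, and for the 11 measured reference genes -0.29, -2.28 and -1.81. Of the reference genes, Gapdh was at the ceiling on every array and B2m stood at -0.39, -2.63 and -3.03. Keratinocyte markers (5 of 6 measured) summed to 14.31, 8.98 and 8.74 on the injured arrays and 7.81 to 8.14 on the control arrays, with Krt1 at 14.04 on injured replicate 1. Neutrophil markers (6 of 6) summed to 8.16, 11.69 and 9.94 on the injured arrays and 8.01 to 8.25 on the control arrays. Macrophage markers (6 of 6) had medians of -0.47, -0.11 and -0.27, fibroblast markers (6 of 6) of -0.72, -1.60 and -1.40, and tenocyte markers (6 of 6) of -2.88, -5.04 and -3.14. Chondrocyte markers had medians of -0.25, -0.07 and -0.09 and osteoblast markers of -0.15, 0.52 and 0.41, and each list read 5.62 to 6.65 at the median on every array, near the unnamed probe sets. The part of other tissues in the proteoglycan values was not tested. Injured replicate 1, a single array, had control levels of muscle markers but high keratinocyte markers (median 4.36 against the control mean). On that array the 10 genes had a median of -3.35 against the control mean. There 8 of 10 read below every control array, against 24.3% of all genes.

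**Figure D4:**
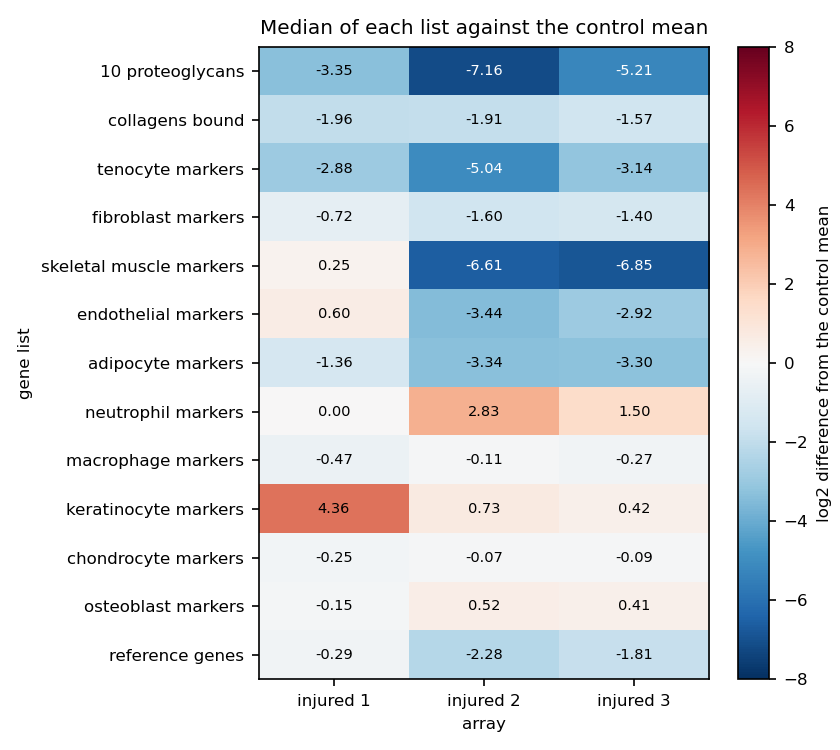
Median log2 difference from the control mean of each gene list on the 3 injured arrays, coloured from blue (lower) to red (higher). The proteoglycans are lower on all 3 arrays, whereas skeletal muscle markers are near 0 on injured replicate 1 (0.25) and low on replicates 2 and 3, and keratinocyte markers are high on replicate 1 (4.36).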

How the data were processed

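Tendon RNA was measured on 6 Affymetrix arrays, 1 per sample, grouped by the labels into 3 injured and 3 control. The deposited values are log2 signals of 68842 probe sets on each array. Per the submitters' processing notes, the authors used Affymetrix Expression Console, and its version, background correction and normalization are not given in those sources. Sample titles name a rat array and the protocol a mouse array, and the platform annotation names rat genes. In that annotation 23446 probe sets have 1 gene symbol, 505 have several and 44891 have none (called unnamed), and 1 symbol was updated through RefSeq. Of 22093 genes, 20846 matched RefSeq by Entrez identifier. For the 1182 genes with several probe sets the brightest was used.

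Values were used as deposited, with no filter and no further normalization. Injured and control arrays were compared with limma 3.58.1 under R 4.3.3 (lmFit and eBayes, two-sided, Benjamini-Hochberg over all genes, threshold 0.05), and SE are from that fit. P-values weigh each difference of group means against the spread between arrays within groups, moderated over all genes. The number of arrays limits the precision, and no detection calls were used. On simulated data with the spread of these groups and 22093 genes, the test recovered 8%, 46%, 84% and 88% of genes changed by a log2 of 1, 2, 4 and 8. No 2 arrays held identical values.

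The 10 genes and the lists (153 genes in 18 lists, 147 analysed) were chosen with earlier results of these data known. Named genes are the 10, the 2 brightest of each related list, and the 5 with the most similar profile. Scx, Mkx, Tnmd, Thbs4, Krt1, Epyc, Podnl1, Nyx, Tsku, Chadl, Dse, Bmp1 and Adamts4 were chosen after their values were seen. Podn, Xylt1, Chpf2, Mylpf and Krt5 were not analysed here, and 1 further listed gene is not reported here. The samples were compared as unpaired. Deviations from the group means of same-numbered arrays correlated at 0.48, -0.04 and 0.59, and those of differently numbered arrays at -0.67 to 0.65. With 3 arrays per group these correlations cannot decide whether the replicate numbers pair the samples. Alternatives were quantile normalization, centring on array medians, dim genes left out, averaged probe sets per gene, eBayes with trend and robust, array weights, a replicate block, genes at the ceiling left out, the median unnamed probe set as a covariate, each array left out, and injured replicates 2 and 3 left out together.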

Additional observations from a re-analysis of the deposited data

How the results depend on the processing

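All 10 genes had differences below 0 under each alternative run, except Dcn without injured replicates 2 and 3, where it was at the ceiling on every remaining array and its difference was 0. The number of the 10 genes past the threshold was 0 as deposited, 10 with array weights and 0 to 9 when each array was left out in turn, the 9 being without injured replicate 1. The count over all genes was 0 as deposited (2572 at an unadjusted p under 0.05), 18098 with array weights, 0 to 13418 with each array left out and 9 with injured replicates 2 and 3 left out together. Among genes of the 6 related lists (7, 18, 12, 9, 12 and 13 measured), 52 passed with array weights, where 81.9% of all genes passed. With each array left out 0 to 32 of them passed, against 0 as deposited. The 32 were without injured replicate 1, where 60.7% of all genes passed. The array weights did not converge and ranged from 0.05 on injured replicate 1 to 29.0 on injured replicate 3, so that setting rests largely on 1 array. The median difference of the 10 genes, -5.42, was -6.43 to -4.44 with each array left out. It was -3.87 with the covariate, a value that leans on injured replicate 1. It was -3.36 without injured replicates 2 and 3, where the lone injured array is assumed to vary like the control arrays. Between 7 and 9 of the genes did not overlap when single arrays were left out, against 8.58% to 30.4% of all genes, the 30.4% being without injured replicate 1. The difference of Dcn, -1.71, was -0.68 without injured replicate 3 and -2.56 after quantile normalization. With the replicate block the median was -5.42, 0 of the 10 genes and 0 of all genes passed (4565 at an unadjusted p under 0.05, lowest adjusted p = 0.24), and the block changed no call. Of 159 values of single genes under alternatives, 139 kept their direction and side of the threshold, and 19 passed it, all with array weights or without injured replicate 1. Signals near the ceiling (Dcn) and near background (Bgn and Aspn on 1 injured array, Chad, Omd and Lum on 2) limit the sizes that could be read.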
